A study of Mus musculus with 6 samples.

Results

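Pancreas RNA-sequencing was analysed here for 78 protein-coding genes that were low in mice with acute pancreatitis (AP) and higher in AP mice that had received polyI:C. The genes were chosen from the measured values themselves. On the scale of log2(TPM + 0.5), where TPM is the deposited transcript level, corrected for gene length and adding up to the same sum in every library, the mean of the AP mice had to be at least 1 below the mean of the saline mice, and the mean of the polyI:C+AP mice at least 0.8 above that of the AP mice. A mean of at least 10 TPM over the 6 mice was also asked, which 8495 of 17290 protein-coding genes had. Of these, 85 genes met the thresholds, and 7 were set aside by name because they belong to gene groups not described here (Aldh1l1, Amy2a1, Amy2a5, Arntl, Cckar, Gamt and Reg3d), which left 78. The differences between saline, AP and polyI:C+AP mice therefore describe how the genes were picked, and no test of them is given.

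The 6 mice were wild type C57BL/6 animals of postnatal week 8, 2 in each of 3 groups. The saline group received saline. The AP group received repeated hourly injections of cerulein (caerulein), a cholecystokinin analogue that overstimulates the acinar cell. The polyI:C+AP group received polyI:C, a synthetic double-stranded RNA that is sensed by TLR3, before the cerulein. All mice were fasted beforehand, and whole pancreas was taken on the day after the first cerulein injection. A group given polyI:C without cerulein was not analysed here, so the response to polyI:C itself and its part in pancreatitis cannot be told apart. The interval between polyI:C and cerulein for the sequenced mice is not given in the sources used here.

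Most of the pancreas consists of acinar cells, which make digestive enzymes in very large amounts, store them in granules and release them when hormones such as cholecystokinin, or neuropeptides such as bombesin and VIP, bind their receptors. A small set of transcription factors, among them the PTF1 complex and Bhlha15, keeps these cells in their mature secretory state. The acinar cell also has a high rate of amino acid turnover and glutathione use. In cerulein pancreatitis acinar cells lose part of this program, duct-type genes come up and leukocytes enter the tissue.

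The libraries differed in depth and in content. From the spacing of low TPM values, the saline libraries were estimated at 3964580 and 3314146 reads, the AP libraries at 6907446 and 8851616, and the polyI:C+AP libraries at 8826866 and 10835199. Acinar secretory products (the 19 genes with values of a list of 34) summed to 255600 and 239369 TPM in saline, 99325 and 71490 TPM in AP, and 63317 and 64268 TPM in polyI:C+AP. Genes without values in the data used here enter neither these sums nor the read estimates. The median of all 16814 tested genes lay 0.45 (log2) higher in AP than in saline and 0.48 higher in polyI:C+AP than in saline. By limma, 3053 genes were called higher and 677 lower in AP than in saline, and after median-of-ratios scaling, which set that median to 0.05, 1564 were higher and 1226 lower. The 78 genes had a median AP minus saline difference of -1.79 with TPM as deposited and of -2.22 after that scaling. Behind the 78 genes stood a median of 75 estimated reads per gene and AP mouse, and 67 of them had at least 10 in both AP mice. In whole tissue, fewer cells of a type and less RNA per cell cannot be told apart.

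The library of polyI:C+AP replicate 2 stood apart from the other 5. Genes of the intestinal epithelium, a list of 29 written after values had been seen, summed to 6109 TPM in it, against 204 TPM in polyI:C+AP replicate 1, 179 and 166 TPM in AP, and 124 and 88.8 TPM in saline. Cdx2, the transcription factor that defines intestinal epithelium, was at 14.6 TPM there and listed at 0 in the other 5 mice. Fabp2, the intestinal fatty acid binding protein, was at 1083 TPM there and between 0 and 1.45 TPM elsewhere. Of the 78 genes, 9 were more than 2-fold above the higher saline mouse in that library, among them Smim24, Lgals4, Ephx2, Cdhr2, Sult1d1, Muc3, Defa17 and Hnf4g. These 9 are described on their own after the other 69. Of the 69, 10 met the 0.8 threshold over the AP mean in polyI:C+AP replicate 2 alone and 11 in replicate 1 alone. The part of intestinal RNA in the values of the 9 and of the 69 was not tested.

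**Figure D1:**
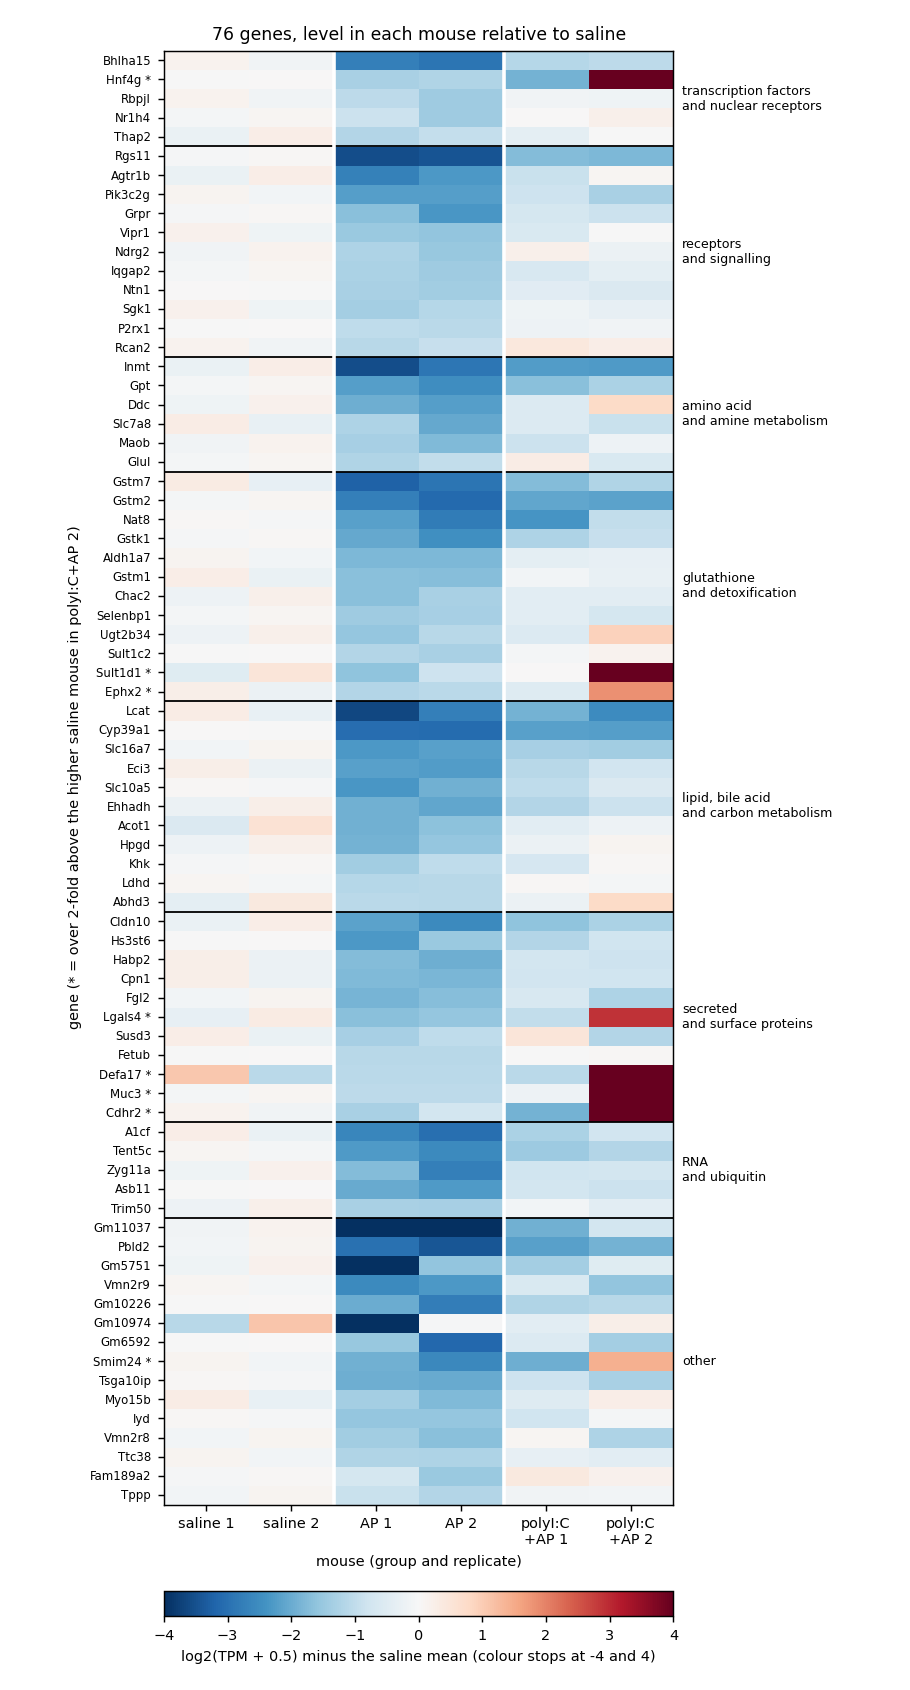
Heat map of 76 of the 78 genes (rows, grouped by function) in the 6 mice (columns). Colour gives log2(TPM + 0.5) minus the mean of the 2 saline mice, from -4 (blue) to 4 (red). The AP columns are blue throughout except for Gm10974 in AP replicate 2, the polyI:C+AP columns are paler for most genes, and the 8 genes with an asterisk are red in polyI:C+AP replicate 2 and not in replicate 1.

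Promoter sequences are shown first for 6 of the genes, chosen because they carry the motifs that were more frequent among the 78 genes than among other genes, or because they belong to acinar transcription factors. They come from the RefSeq annotation of GRCm38.p6, which held a promoter for 59 of the 78 genes. Each line gives the 250 bases before a RefSeq start, 5′ to 3′ on the strand of the gene, with the start nearest to the outer 5′ end of the gene in GENCODE taken where RefSeq had several. For 4 of the 59 genes that start lay more than 1 kb from the outer end: Nr1h4 (26.9 kb), Pik3c2g (26.9 kb), Muc3 (16.7 kb) and Gm5751 (2.7 kb). The stretch shown for Nr1h4 is therefore inside the gene. Capitals mark the E-box variants CAGCTG and CATCTG, the homeodomain motif GTTAAT and the GATA motif AGATAA, on either strand.

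Bhlha15 (chr5:144190036-144190285, plus strand): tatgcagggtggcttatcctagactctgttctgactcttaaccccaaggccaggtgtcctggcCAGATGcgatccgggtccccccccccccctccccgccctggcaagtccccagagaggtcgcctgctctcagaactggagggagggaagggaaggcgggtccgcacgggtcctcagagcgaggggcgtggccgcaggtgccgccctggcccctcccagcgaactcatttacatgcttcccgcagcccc
Rbpjl (chr2:164402944-164403193, plus strand): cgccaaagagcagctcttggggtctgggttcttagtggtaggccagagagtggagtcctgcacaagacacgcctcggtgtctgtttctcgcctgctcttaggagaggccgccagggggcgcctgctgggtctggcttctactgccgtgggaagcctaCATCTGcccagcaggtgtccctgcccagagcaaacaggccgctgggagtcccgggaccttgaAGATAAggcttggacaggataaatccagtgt
Aldh1a7 (chr19:20727557-20727806, minus strand): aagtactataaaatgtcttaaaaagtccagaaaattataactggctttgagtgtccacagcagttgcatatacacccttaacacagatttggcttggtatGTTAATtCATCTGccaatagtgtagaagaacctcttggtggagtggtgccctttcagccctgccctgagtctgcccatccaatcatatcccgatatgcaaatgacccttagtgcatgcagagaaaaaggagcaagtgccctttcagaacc
Cldn10 (chr14:118787621-118787870, plus strand): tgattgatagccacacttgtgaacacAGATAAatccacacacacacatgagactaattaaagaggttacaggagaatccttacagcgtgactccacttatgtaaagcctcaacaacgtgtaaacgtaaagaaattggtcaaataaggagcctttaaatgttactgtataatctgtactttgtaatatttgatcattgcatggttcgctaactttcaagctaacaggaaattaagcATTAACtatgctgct
Nr1h4 (chr10:89506659-89506908, minus strand): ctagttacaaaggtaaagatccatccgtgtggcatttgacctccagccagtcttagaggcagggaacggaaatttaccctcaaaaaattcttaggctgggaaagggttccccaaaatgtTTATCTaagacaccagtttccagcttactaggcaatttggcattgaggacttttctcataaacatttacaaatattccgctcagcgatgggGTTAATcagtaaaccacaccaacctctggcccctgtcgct
Cpn1 (chr19:43986521-43986770, minus strand): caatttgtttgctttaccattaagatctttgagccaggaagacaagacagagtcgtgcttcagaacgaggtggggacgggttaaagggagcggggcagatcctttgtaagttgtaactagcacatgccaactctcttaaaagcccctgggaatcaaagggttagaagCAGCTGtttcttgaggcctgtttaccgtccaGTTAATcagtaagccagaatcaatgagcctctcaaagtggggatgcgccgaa

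In all, 12 motifs were searched on both strands from 250 bases before to 50 bases after that start, in the 59 genes and in 6668 other protein-coding genes of the same level (a mean of 10 TPM or more). The homeodomain motif GTTAAT was present in 11 of the 59 promoters (18.6%), against 3.8% of the others. Its 11 genes were Aldh1a7, Cldn10, Nr1h4, Smim24, Cpn1, Khk, Nat8, Cdhr2, Habp2, Sult1d1 and Pik3c2g, of which Smim24, Cdhr2 and Sult1d1 are among the 9 set apart.

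The GATA motif AGATAA was found in 15.3% of the 59 promoters against 5.8%, the TATA motif TATAAA in 18.6% against 7.0%, the E-box CATCTG in 22.0% against 10.4%, and the E-box CAGCTG in 20.3% against 13.9%. The RBPJ-type motif TGGGAA was as frequent in the 59 promoters (22.0%) as in the others (22.5%), and the nuclear receptor motif AGGTCA was near the others too (13.6% against 12.2%). Less frequent than elsewhere were ACGTGG (3.4% against 12.0%), which the unfolded protein response uses, and the cyclic AMP response motif TGACGTCA, found in 0 of the 59 and in 3.5% of the others. For the remaining motifs the shares were 1.7% against 3.4% for TGACTCA, 1.7% against 0.9% for CAAGGTCA and 3.4% against 3.1% for the interferon-type repeat (ISRE-type). Every match to CAAGGTCA is also a match to AGGTCA. The 59 promoters were richer in A and T, with a median of 46.7% against 38.3%. Motif shares can move with that composition, both for motifs made mostly of A and T and for ACGTGG and TGACGTCA, which hold CG. The part of composition in the motif shares was not tested. A match is a run of letters and was not tested as a binding site.

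Across the 78 genes, the AP level had a median of 28.2% of the saline level and the polyI:C+AP level a median of 73.3%. For the 69 genes apart from those 9, the medians were 28.0% and 67.6%. Of the 69, 30 stood within 0.5 (log2) of saline in the polyI:C+AP mice, 22 were still 1 or more below, and 17 lay between. In polyI:C+AP minus saline, the median of the 78 genes was -0.51, and -0.70 without polyI:C+AP replicate 2. Higher levels than in AP therefore came with very different distances from saline, such as 20.1% of the saline level for Inmt and 127% for Rcan2.

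By limma over all 16814 genes, 65 of the 78 genes were called lower in AP than in saline, where 4.03% of all tested genes were. In polyI:C+AP against AP, 17 were called higher, against 0.440% of all tested genes. Both comparisons are the ones the genes were chosen on, and the counts are given for orientation only. The 17 became 0 without AP replicate 1, without AP replicate 2 or without polyI:C+AP replicate 2, became 5 without polyI:C+AP replicate 1, and became 8 without saline replicate 1 and also 8 without saline replicate 2. In polyI:C+AP against saline, a difference fixed by the other 2, 20 were called lower (2.97% of all tested genes) and 0 higher (16.9% of all tested genes). After median-of-ratios scaling, 32 were lower, against 5.87% of all tested genes, and 0 higher, against 7.90%. Without polyI:C+AP replicate 1, 8 were called higher. At an unadjusted p under 0.05, the limma fit also had 0 of the 78 genes higher than saline. Among the 8495 protein-coding genes at 10 TPM or more, 4.59% met the threshold between AP and saline, and 3.38% met the threshold between polyI:C+AP and AP. Both AP mice lay below all 4 other mice for 71 of the 78 genes, against 9.11% of the 8495. The 7 exceptions were Smim24, Nat8, Cdhr2, Defa17, Hnf4g, Gm10974 and Susd3.

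**Figure D2:**
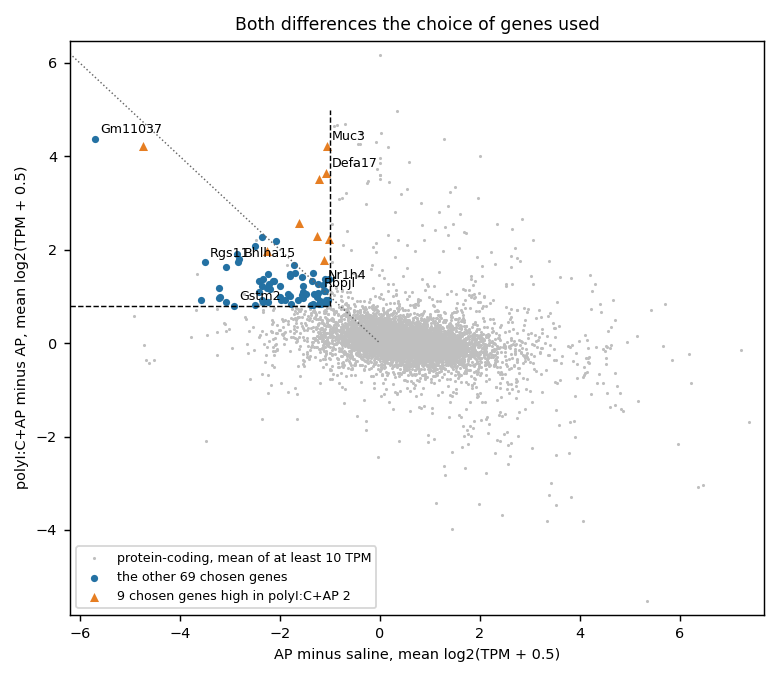
Scatter plot of the 2 differences on which the genes were chosen, AP minus saline (x axis) and polyI:C+AP minus AP (y axis), both as mean log2(TPM + 0.5), for 8495 protein-coding genes (grey). Dashed lines are the thresholds at -1 and 0.8, and the dotted line marks a polyI:C+AP level equal to saline. Most of the 69 genes (blue) lie below the dotted line, and 7 of the 9 genes high in polyI:C+AP replicate 2 (orange) lie more than 0.5 above it.

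Transcription factors and nuclear receptors made up 5 of the genes. Bhlha15 (ENSMUSG00000052271), a basic helix-loop-helix factor of the mature secretory state, was at 391 and 326 TPM in saline, 53.6 and 46.4 TPM in AP and 161 and 171 TPM in polyI:C+AP. It thus stood at 13.9% of saline in AP and at 46.4% with polyI:C, with no overlap between any of the groups. Rbpjl (ENSMUSG00000017007), the pancreas-specific subunit of the PTF1 complex, was at 238 and 195 TPM in saline, 104 and 79.8 TPM in AP and 196 and 191 TPM in polyI:C+AP. Its AP mice were below all others, and its polyI:C+AP mice were near the lower saline mouse. Nr1h4 encodes the bile acid receptor FXR and was at 53.3 and 58.9 TPM in saline, 30.3 and 20.7 TPM in AP and 56.5 and 64.4 TPM in polyI:C+AP. Its polyI:C+AP mice overlapped the saline range or lay above it (108% of the saline mean). Thap2, a THAP-domain gene, was at 14.01 and 16.3 TPM in AP and at 24.3 and 31.7 TPM with polyI:C, against 26.5 and 39.05 TPM in saline. Ptf1a, another PTF1 subunit, and Nr5a2 behaved differently. Ptf1a was at 44.5 and 40.8 TPM in saline, 55.2 and 43.4 TPM in AP and 67.3 and 98.3 TPM in polyI:C+AP, and Nr5a2, a nuclear receptor that works with PTF1 on acinar genes, at 92.4 and 97 TPM in saline, 107 and 105 TPM in AP and 165 and 145 TPM in polyI:C+AP, and limma called neither different in any of the 3 comparisons at the 2-fold limit. Of the 16 tested acinar transcription factors that are not among the 78, 2 were called lower in AP (Creb3l2 and Ppargc1a), 1 higher (Xbp1), and 1 higher in polyI:C+AP than in AP (Foxa2, 20.1 and 21.8 TPM in AP and 49.7 and 41.5 TPM with polyI:C). At an unadjusted p under 0.05, limma had 9 of the 16 higher and 0 lower in polyI:C+AP than in AP. Their median difference was 0.51, against 0.04 for all tested genes.

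Receptors and signalling proteins accounted for 11 genes, and both AP mice were below all 4 others for each of them. The choice favours this, and it held for 71 of the 78 genes. Among the 8495 protein-coding genes at 10 TPM or more, the share was 9.11%. Several of the receptors sense signals that drive acinar secretion. Grpr, the receptor for bombesin-type peptides, was at 30.4 and 33.05 TPM in saline, 9.65 and 5.87 TPM in AP and 19.2 and 17.2 TPM in polyI:C+AP. Vipr1, a receptor for VIP, was at 26.3 and 20.4 TPM in saline, 7.89 and 7.398 TPM in AP and 15.1 and 22.9 TPM in polyI:C+AP. Agtr1b, an angiotensin II receptor, had lower levels, at 13.4 and 19.8 TPM in saline, 2.105 and 2.94 TPM in AP and 8.58 and 17.2 TPM in polyI:C+AP. P2rx1, an ATP-gated cation channel, was the most abundant of this group at 269 and 278 TPM in saline, 135 and 129 TPM in AP and 239.8 and 249 TPM in polyI:C+AP. The 4 receptors stood at 15.2% to 48.2% of saline in AP and at 57.4% to 89.2% with polyI:C. Vipr2, a second VIP receptor outside the 78, was at 35.1 and 33.7 TPM in saline, 12 and 10.2 TPM in AP and 18 and 18.7 TPM in polyI:C+AP and was called lower in AP, with no call between polyI:C+AP and AP.

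Inside the cell, Rgs11, which speeds up the GTPase of G protein alpha subunits, had the largest difference between AP and saline of the group. It was at 106 and 114 TPM in saline, 8.85 and 9.596 TPM in AP and 32.4 and 31.4 TPM in polyI:C+AP, which is 8.41% of saline in AP and 29.1% with polyI:C. The groups did not overlap, and the polyI:C+AP mice were well short of saline. Rcan2, an inhibitor of the calcium-dependent phosphatase calcineurin, was at 40.3 and 32.9 TPM in saline, 16.5 and 18.9 TPM in AP and 49.5 and 43.5 TPM in polyI:C+AP, and its polyI:C+AP mice were above both saline mice. Ndrg2 was at 94.6 and 113 TPM in saline, 44.05 and 36.2 TPM in AP and 118 and 86.9 TPM in polyI:C+AP, with a polyI:C+AP mouse above and the other below both saline mice. Sgk1, a serum and glucocorticoid regulated kinase, was at 81.3 and 64.5 TPM in saline, 28.1 and 32.5 TPM in AP and 63.6 and 57.5 TPM in polyI:C+AP. The lipid kinase Pik3c2g, the scaffold Iqgap2 and the guidance factor Ntn1 stood at 47.4%, 70.4% and 70.1% of saline in the polyI:C+AP mice, up from 19.7%, 39.4% and 39.6% in AP.

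**Figure D3:**
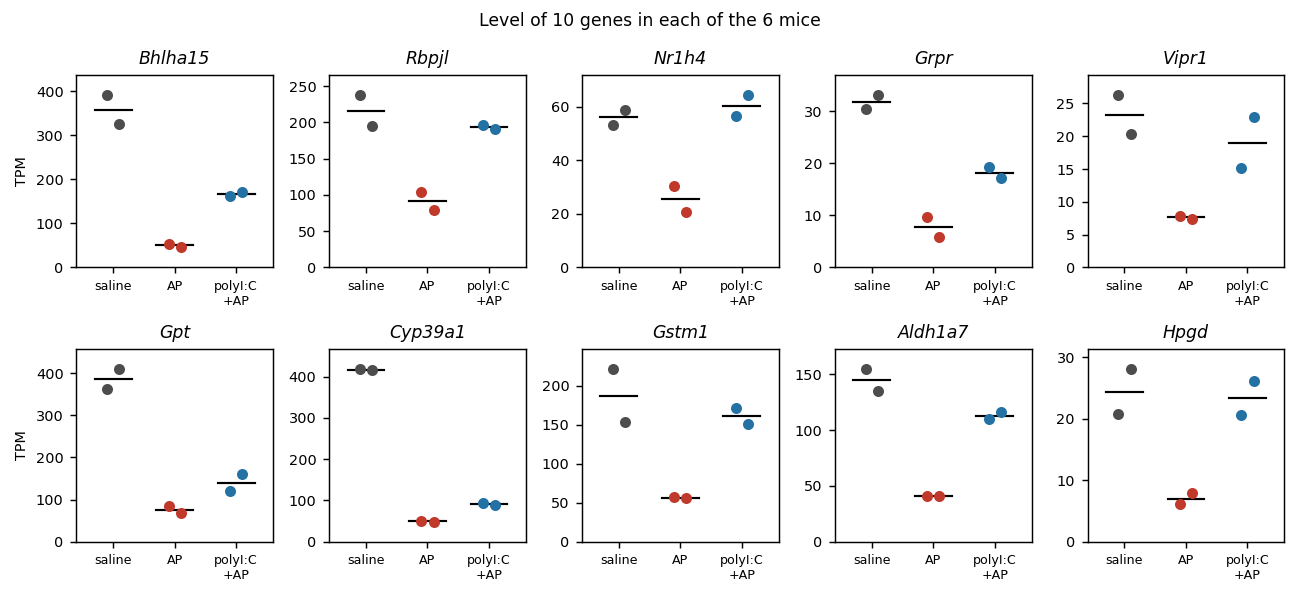
TPM of 10 genes in each of the 6 mice, with a dot per mouse and a bar at the mean of the 2 mice of a group. Axes start at 0. In every panel both AP mice (red) are the lowest, and the polyI:C+AP mice (blue) range from 21.9% of the saline mean for Cyp39a1 to 108% for Nr1h4.

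Amino acid and amine metabolism held 7 genes. Gpt, the alanine aminotransferase used as a marker of liver damage in serum, was at 363 and 409 TPM in saline, 83.8 and 68.6 TPM in AP and 121 and 160 TPM in polyI:C+AP. Inmt, an amine N-methyltransferase, was at 56.6 and 81.02 TPM in saline, 5.39 and 8.71 TPM in AP and 13.95 and 13.7 TPM in polyI:C+AP. They stood at 19.7% and 10.2% of saline in AP and at 36.4% and 20.1% with polyI:C. For both genes the polyI:C+AP mice lay between the AP and the saline mice without touching either.

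Other genes of this group showed scatter between the mice, and their higher level with polyI:C is part of how they were chosen. Glul, glutamine synthetase, was at 547 and 615 TPM in saline, 253 and 295 TPM in AP and 711 and 379 TPM in polyI:C+AP, so that polyI:C+AP replicate 1 was above both saline mice and replicate 2 well below them. Slc7a8, a transporter of neutral amino acids, was at 436 and 294 TPM in saline, 150.4 and 86.9 TPM in AP and 243 and 194 TPM in polyI:C+AP. Ddc, the decarboxylase that makes dopamine and serotonin, was at 23.9 and 30.3 TPM in saline, 6.61 and 5.501 TPM in AP and 18.2 and 46.2 TPM in polyI:C+AP, and Maob, which breaks down amines, at 15.01 and 18.1 TPM in saline, 6.26 and 4.44 TPM in AP and 8.799 and 14.3 TPM in polyI:C+AP. In both, polyI:C+AP replicate 2 had the higher value of the pair.

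For the rest of amino acid metabolism, genes that met both thresholds are taken out of the list by the choice, as in the other lists given here, so their counts describe what remained. Of 56 tested genes of the list that are not among the 78, 21 were called lower in AP and 2 higher. Between polyI:C+AP and AP, limma called 0 of the 56 higher and 1 lower (11 and 9 at an unadjusted p under 0.05), and 16 were called lower and 3 higher in polyI:C+AP than in saline. Their median difference was -0.64 in AP and -0.76 in polyI:C+AP, both against saline. Mat1a, which makes S-adenosylmethionine, was at 1045 and 1342 TPM in saline, 85.5 and 87.6 TPM in AP and 91.8 and 98.3 TPM in polyI:C+AP, and Bcat2, a branched-chain aminotransferase, at 160 and 163 TPM in saline, 40.3 and 36.1 TPM in AP and 43.2 and 27.4 TPM in polyI:C+AP. In both, the polyI:C+AP mice were near the AP mice.

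Glutathione and detoxification genes numbered 12, of which Sult1d1 and Ephx2 are among the 9. The mu-class glutathione transferases, which couple glutathione to reactive compounds, were represented by 3 genes of the same cluster on chromosome 3. Gstm1 was at 221 and 154 TPM in saline, 57.1 and 55.9 TPM in AP and 172 and 151 TPM in polyI:C+AP, and its polyI:C+AP mice lay at or just under the saline mice. Gstm2 was at 413 and 457 TPM in saline, 64.8 and 50.4 TPM in AP and 102 and 98.4 TPM in polyI:C+AP, and Gstm7 at 72.9 and 46.4 TPM in saline, 5.69 and 7.23 TPM in AP and 17.2 and 25.1 TPM in polyI:C+AP. Gstm1 thus stood at 86.2% of saline with polyI:C, Gstm7 at 35.5% and Gstm2 at 23.03%, although Gstm2 lies next to Gstm1 in the genome.

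Other mu-class genes were not among the 78. Gstm3 was at 1.57 and 0.642 TPM in saline, 3.57 and 4.8 TPM in AP and 18.3 and 52.7 TPM in polyI:C+AP, and was called higher in polyI:C+AP than in saline. Gstm4 was called higher in the same comparison, at 6.48 and 6.54 TPM in saline, 4.9 and 6.38 TPM in AP and 13.8 and 13.8 TPM in polyI:C+AP. Gstm5 (18.4 and 24 TPM in saline, 19.1 and 24.9 TPM in AP and 34.3 and 31.3 TPM in polyI:C+AP) and Gstm6 (3.31 and 3.29 TPM in saline, 1.72 and 1.53 TPM in AP and 4.04 and 7.39 TPM in polyI:C+AP) were called in none of the 3.

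Aldh1a7, an aldehyde dehydrogenase closely related to the retinal dehydrogenase Aldh1a1, was at 154 and 135 TPM in saline, 41.2 and 41.2 TPM in AP and 109.7 and 116 TPM in polyI:C+AP. The 2 mice of each of the AP and polyI:C+AP groups differed little from each other. Aldh1a1 itself was at 236 and 305 TPM in saline, 182 and 185 TPM in AP and 440 and 609 TPM in polyI:C+AP and was called higher in polyI:C+AP than in AP, without a call between AP and saline. Gstk1, a glutathione transferase of mitochondria and peroxisomes, was at 36.4 and 39.6 TPM in saline, 8.76 and 6.56 TPM in AP and 15.8 and 19.9 TPM in polyI:C+AP, and Nat8, which acetylates cysteine conjugates, at 73.8 and 69.8 TPM in saline, 15.4 and 9.89 TPM in AP and 13.6 and 35.6 TPM in polyI:C+AP. In Nat8, polyI:C+AP replicate 1 lay inside the AP range and replicate 2 above it. Chac2, which degrades glutathione, the sulfotransferase Sult1c2, Ugt2b34 of the glucuronosyltransferases and Selenbp1 stood between 67.6% and 127% of saline with polyI:C, and between 35.4% and 41.7% in AP. For Ugt2b34 the upper value rests on polyI:C+AP replicate 2, with 41.96 TPM in replicate 1 and 117 TPM in replicate 2. Among 28 further tested genes of detoxification and redox, 7 were called lower and 3 higher in AP, and 1 (Aldh1a1) higher in polyI:C+AP than in AP. At an unadjusted p under 0.05, limma had 12 of the 28 higher and 0 lower in that last comparison. Their median difference there was 0.49, against 0.04 for all tested genes.

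Lipid, bile acid and carbon metabolism contributed 12 genes, and both AP mice were below all 4 others for each. The choice favours this here too, as it held for 71 of the 78 genes and 9.11% of the 8495. Cyp39a1, an oxysterol hydroxylase of bile acid synthesis, was at 417 and 415 TPM in saline, 49.7 and 48.5 TPM in AP and 92.9 and 89.6 TPM in polyI:C+AP. The mice of each group lay close together, and its polyI:C+AP level was 21.9% of saline. Lcat, which esterifies cholesterol in plasma lipoproteins, was at 98.5 and 65.3 TPM in saline, 5.93 and 11.6 TPM in AP and 21.04 and 13.6 TPM in polyI:C+AP. Slc16a7, a transporter of pyruvate and lactate, and Slc10a5, of the bile acid transporter family, stood at 38.01% and 57.7% of saline with polyI:C, from 20.3% and 21.7% in AP.

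Peroxisomal and cytosolic fatty acid enzymes followed. Ehhadh, the bifunctional enzyme of peroxisomal beta-oxidation, was at 194 and 263 TPM in saline, 59.5 and 53.1 TPM in AP and 100 and 125 TPM in polyI:C+AP. Acot1, a cytosolic acyl-CoA thioesterase, was at 174 and 379.8 TPM in saline, 66.9 and 81.2 TPM in AP and 189.9 and 221 TPM in polyI:C+AP, and its saline mice were farther apart than the mice of the other groups. Its mitochondrial relative Acot2 went the other way, at 59.6 and 92.8 TPM in saline, 191 and 201 TPM in AP and 263 and 260 TPM in polyI:C+AP, and was called higher in AP than in saline. Eci3, an enoyl-CoA isomerase, stood at 50.8% of saline with polyI:C. Of 27 further tested genes of fatty acid oxidation, 8 were called lower in AP, 1 higher, and 4 were called lower and 3 higher in polyI:C+AP than in saline. Between polyI:C+AP and AP, limma called 0 of the 27 in either direction (12 were higher and 0 lower at an unadjusted p under 0.05), with a median difference of 0.56 against 0.04 for all tested genes. Ppara, the nuclear receptor that switches on peroxisomal oxidation, was at 13.2 and 15.6 TPM in saline, 3.12 and 2.94 TPM in AP and 6.12 and 6.79 TPM in polyI:C+AP. It had polyI:C+AP mice above the AP mice and was called lower in polyI:C+AP than in saline.

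Other enzymes of this group stood at or near the saline level in the polyI:C+AP mice. Hpgd, which inactivates prostaglandins, was at 20.8 and 28.02 TPM in saline, 6.12 and 7.92 TPM in AP and 20.6 and 26.1 TPM in polyI:C+AP. Ldhd, the D-lactate dehydrogenase, was at 17.9 and 16.2 TPM in saline, 7.49 and 7.67 TPM in AP and 17.8 and 16.3 TPM in polyI:C+AP. Khk, fructokinase, was at 49.01 and 53.3 TPM in saline, 19.3 and 24.8 TPM in AP and 31.7 and 53.3 TPM in polyI:C+AP, with polyI:C+AP replicate 1 between the AP and saline mice and replicate 2 at the saline level. Abhd3, a phospholipase, was at 9.36 and 19.2 TPM with polyI:C, against 5.05 and 4.93 TPM in AP and 8.41 and 14.6 TPM in saline.

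Secreted and surface proteins numbered 11, with 4 of the 9 set-apart genes among them. Fgl2, a fibrinogen-like protein, was at 497 and 579 TPM in saline, 148 and 164 TPM in AP and 346 and 227 TPM in polyI:C+AP. Its polyI:C+AP replicate 2 was closer to the AP than to the saline mice. Cldn10, a tight-junction claudin, was at 102 and 149.6 TPM in saline, 27.5 and 20.5 TPM in AP and 39.99 and 51.2 TPM in polyI:C+AP, and Cpn1, the catalytic subunit of carboxypeptidase N, at 83.6 and 60.7 TPM in saline, 20.7 and 19.6 TPM in AP and 41.4 and 40.98 TPM in polyI:C+AP. Cldn10 stood at 36.3% of saline with polyI:C, Cpn1 at 57.1% and Habp2, a hyaluronan-binding protease, at 56.5%. Fetub, a plasma fetuin, was at 20.8 and 21.5 TPM in saline, 9.52 and 9.599 TPM in AP and 21.01 and 21.8 TPM in polyI:C+AP, and was back at saline in both polyI:C+AP mice. Hs3st6, a heparan sulfate sulfotransferase, stood at 50.05%. Susd3 was at 19.96 TPM in polyI:C+AP replicate 1 and at 6.03 TPM in replicate 2, the latter inside the AP range of 5.35 and 6.76 TPM.

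RNA and ubiquitin factors gave 5 genes, and polyI:C+AP mice were above both AP mice for all 5, which the choice of genes favours. The share over protein-coding genes at 10 TPM or more was 46.8% for polyI:C+AP replicate 1 and 40.6% for replicate 2. In each case the mean level left that mouse out. Tent5c, a poly(A) polymerase that acts on mRNA of secreted proteins, was at 409 and 359 TPM in saline, 78.7 and 64.98 TPM in AP and 139 and 171 TPM in polyI:C+AP. A1cf, the RNA-binding partner of the editing enzyme APOBEC, was at 54.2 and 37.2 TPM in saline, 6.97 and 5.12 TPM in AP and 18.4 and 26.3 TPM in polyI:C+AP. The ubiquitin ligase genes Asb11, Zyg11a and Trim50 stood at 21.4%, 20.9% and 39.5% of saline in AP and at 56.7%, 57.97% and 82.9% with polyI:C. Each polyI:C+AP mouse alone met the 0.8 threshold for these 5 genes, as for 50 of the 78.

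The remaining 15 genes have other or unknown functions. Pbld2, a phenazine biosynthesis-like protein, was at 106 and 123 TPM in saline, 14.04 and 10.1 TPM in AP and 24.9 and 30.4 TPM in polyI:C+AP. Vmn2r9 and Vmn2r8, annotated as vomeronasal receptors, lie 26.4 kb apart on chromosome 5. Vmn2r9 was at 135 and 121 TPM in saline, 21.5 and 25.6 TPM in AP and 84.04 and 42.1 TPM in polyI:C+AP and Vmn2r8 at 16.4 and 19.2 TPM in saline, 6.43 and 5.23 TPM in AP and 18.9 and 7.26 TPM in polyI:C+AP. Vmn2r8 overlaps the cargo receptor gene Tmed11 on the same strand, and Tmed11 was at 3391 and 4056 TPM in saline, 148 and 133 TPM in AP and 170 and 110 TPM in polyI:C+AP, so reads of this locus can be credited to the wrong gene. The nearby Vmn2r12 missed the level threshold with a mean of 9.03 TPM and was at 24.1 and 22.3 TPM in saline, 1.13 and 0.445 TPM in AP and 4.74 and 1.46 TPM in polyI:C+AP. Between 24.5% and 47.9% of saline in AP were the other named genes of this group, Iyd (an iodotyrosine deiodinase), Tsga10ip, Myo15b, Ttc38, Fam189a2 and Tppp (a tubulin-binding protein), and they stood at 47.9% to 122% with polyI:C.

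The 5 predicted genes in this group rest on little sequence. Gm11037 has exons of 60 bases in all, lies inside Hspa12b on the same strand, was listed at 0 in both AP mice, and was at 22.8 and 28.1 TPM in saline and 6.36 and 15.2 TPM with polyI:C. Hspa12b itself was called in none of the 3 comparisons. Gm10974 has 126 bases of exon opposite Lrrk1 and was at 5.44 and 26.7 TPM in saline, 0 and 11.7 TPM in AP and 9.08 and 14.4 TPM in polyI:C+AP, with AP replicate 2 inside the range of the others. Gm6592 and Gm5751 lie 24.6 kb apart on the X chromosome and were at 29.7 and 29.9 TPM in saline, 10.2 and 2.92 TPM in AP and 20.3 and 11.4 TPM in polyI:C+AP and at 40.1 and 51.2 TPM in saline, 2.11 and 15 TPM in AP and 17.2 and 32.1 TPM in polyI:C+AP. Gm10226 was at 51.03 and 52.8 TPM in saline, 12.8 and 7.26 TPM in AP and 22.4 and 23.8 TPM in polyI:C+AP. In AP replicates 1 and 2 the values stand on an estimated 0 and 0 reads for Gm11037, 0 and 4 for Gm10974, 2 and 18 for Gm5751, 7 and 5 for Gm10226, and 10.9 and 4 for Gm6592. The other groups rest on as little for Gm11037, with 2 and 2 estimated reads in saline and 1 and 3 in polyI:C+AP. For Gm10974 they were 1 and 4 in saline and 3 and 6 in polyI:C+AP.

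Shared sequence limits a few of the others. Of the stretches of 100 bases of Defa17, 90.6% occur in transcripts of another gene (mainly Defa3). The share was 25.74% for Gm6592, 18.92% for Selenbp1 (Selenbp2), 12.35% for Acot1 (Acot2) and 5.86% for Gstm1. Selenbp2 was at 2.09 and 2.94 TPM in saline, 2.04 and 1.62 TPM in AP and 3.08 and 1.46 TPM in polyI:C+AP. Genes on the opposite strand overlap Fgl2, Glul, Rbpjl, Rgs11, Habp2, Ldhd and others, and whether strand was used in counting is not given in the sources used here. Cyp39a1 and Rcan2 are neighbours on chromosome 17, 49.9 kb apart with no coding gene between them, as are Gstm2 and Gstm1 on chromosome 3 at 25.8 kb.

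The genes set apart that are named here differed from AP by -0.87 to 1.22 (log2) in polyI:C+AP replicate 1 and by 2.94 to 7.58 in replicate 2. Lgals4, a galectin of gut epithelium, was at 18.5 and 30.04 TPM in saline, 7.04 and 7.79 TPM in AP and 11.8 and 177 TPM in polyI:C+AP. Smim24 was at 56.3 and 48.6 TPM in saline, 13.5 and 8.26 TPM in AP and 13.1 and 140.1 TPM in polyI:C+AP, and Ephx2, soluble epoxide hydrolase, at 21.9 and 15.7 TPM in saline, 8.05 and 8.55 TPM in AP and 12.9 and 66.8 TPM in polyI:C+AP. In these 3 genes the AP mice were below the saline mice, so the first difference does not rest on that library.

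For 5 more of the 9 the level threshold itself was passed through replicate 2 alone. Cdhr2, a brush border cadherin, was at 5.97 and 4.896 TPM in saline, 1.93 and 3.05 TPM in AP and 1.11 and 116 TPM in polyI:C+AP, and Hnf4g, a nuclear receptor of gut and pancreas, at 3.405 and 3.45 TPM in saline, 1.09 and 1.19 TPM in AP and 0.558 and 61.4 TPM in polyI:C+AP. Muc3, an intestinal mucin, was at 0.488 and 0.5999 TPM in saline, 0 and 0 TPM in AP and 0.408 and 95.5 TPM in polyI:C+AP. Sult1d1, a sulfotransferase, was at 2.305 and 5.101 TPM in saline, 0.787 and 1.74 TPM in AP and 3.47 and 94.6 TPM in polyI:C+AP, and Defa17, a Paneth cell defensin, at 1.73 and 0 TPM in saline, 0 and 0 TPM in AP and 0 and 77.9 TPM in polyI:C+AP. Without that mouse their means over the other 5 were 3.39, 1.94, 0.299, 2.68 and 0.345 TPM in the order given. Cdhr2, Hnf4g and Defa17 were no higher in replicate 1 than in the AP mice. The same level threshold was missed without replicate 2 by 3 genes of the 69 as well, Myo15b, Agtr1b and Abhd3, at 9.51, 9.37 and 8.47 TPM.

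Taken mouse by mouse, the 0.8 threshold over the AP mean was met in both polyI:C+AP mice by 50 of the 78 genes, 48 of them outside the 9. Replicate 2 alone met it for 17 genes, of which 7 are among the 9 and the others are Gpt, Iqgap2, Cldn10, Ugt2b34, Khk, Nat8, Thap2, Iyd, Hs3st6 and Maob. Replicate 1 alone met it for 11 genes, Glul, Fgl2, Slc7a8, Gstm2, Ntn1, Selenbp1, Lcat, Ttc38, Tsga10ip, Vmn2r8 and Susd3. For the 69 genes the median difference from AP was 1.10 in replicate 1 and 1.14 in replicate 2, and for the 9 it was 0.61 and 5.31.

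**Figure D4:**
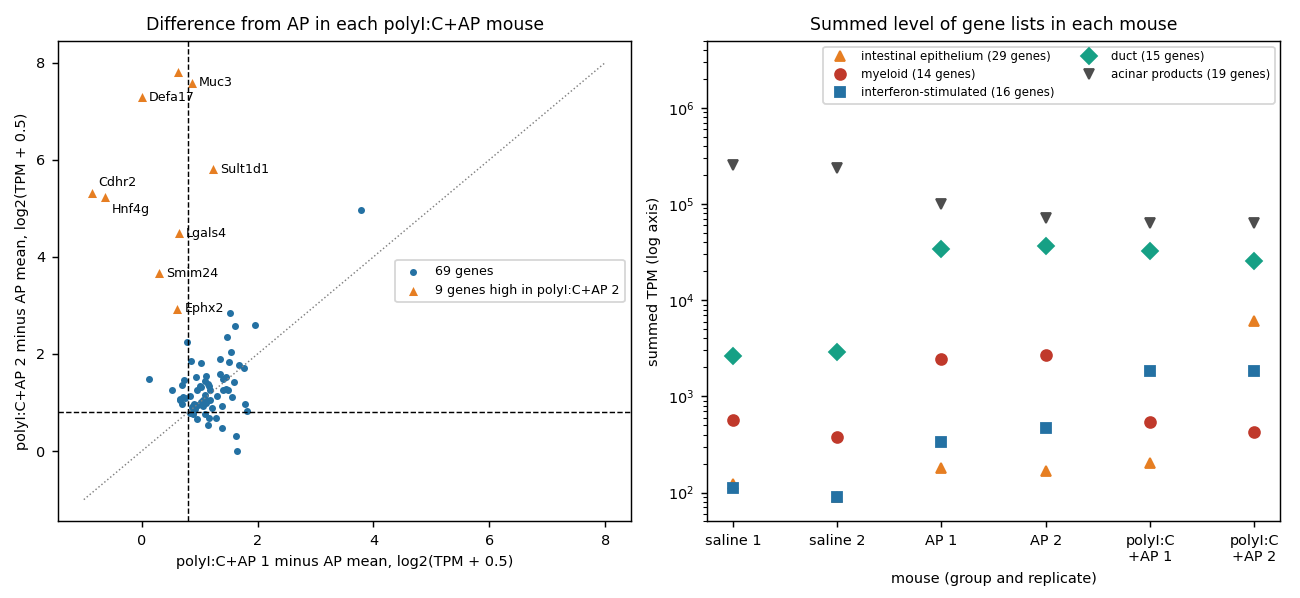
Left, log2(TPM + 0.5) of polyI:C+AP replicate 1 (x axis) and replicate 2 (y axis) minus the AP mean for the 78 genes, with dashed lines at 0.8 and a dotted line of equality. The 9 genes set apart (orange) lie far above the line, with a median of 5.31 in replicate 2 and 0.61 in replicate 1. Right, summed TPM of 5 gene lists in each mouse on a log axis, with intestinal genes at 6109 TPM in polyI:C+AP replicate 2 and at most 204 TPM elsewhere.

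The choice was repeated with each mouse left out, and the left-out mouse was then compared with the others. With saline replicate 1 left out, 78 genes were chosen (70 of them among the 78 described), and 94.9% of them were above both AP mice in that mouse, against 20.6% of all protein-coding genes of this level. With saline replicate 2 left out, 91.1% of 79 genes were, against 21.0%. With AP replicate 1 left out, 87.4% of 95 genes were below all 4 mice of the other groups in it, against 12.5%, and with AP replicate 2 left out, 80.2% of 91 genes, against 13.4%. With polyI:C+AP replicate 1 left out, 89.2% of 74 genes were above both AP mice in it, against 46.8%, and with polyI:C+AP replicate 2 left out, 91.4% of 81 genes, against 40.6%. In these 81 genes, which were chosen without the library that stood apart, 56 of the 78 were included. The left-out mouse shares its AP or saline comparison mice with the choice, so these shares are a description.

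Genes at the edges of the choice had values close to each other. Just inside the threshold between AP and saline were Cdhr2 (-1.01), Rcan2 (-1.03) and Tppp (-1.03), and just outside were Tmem64 (-0.999), Cnnm2 (-0.976) and Cyp4f14 (-0.965). For polyI:C+AP minus AP, the genes just inside were Gstm2 (0.804), Selenbp1 (0.806) and Nat8 (0.811), and those just outside 1810062G17Rik (0.791), Dpep1 (0.787) and Myo16 (0.784). For the level, Abhd3, Agtr1b and Myo15b had means of 10.3, 10.7 and 10.7 TPM, and Slc25a34, Lims2 and Vmn2r12 had 9.65, 9.07 and 9.03 TPM.

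Among secretory products, Amy2a1, Amy2a5 and Reg3d met both thresholds and were set aside by name, as given at the start. Of the 34 acinar products listed apart from these, 19 had values in the data used here and 18 passed the level for testing. The rest of the 34 had no value, so nothing is said of them. Of the 18, 13 were called lower in AP than in saline and 15 lower in polyI:C+AP than in saline. Between polyI:C+AP and AP, limma called 1 lower and 0 higher (8 and 2 at an unadjusted p under 0.05), and the list's median difference was -0.46. Serpini2, a serpin of acinar cells, was at 13304 and 14852 TPM in saline, 606 and 502 TPM in AP and 368 and 502 TPM in polyI:C+AP, and Ctrc, chymotrypsin C, at 1742 and 1677 TPM in saline, 194 and 167 TPM in AP and 160 and 141 TPM in polyI:C+AP. Tff2, a trefoil peptide, was at 34940 and 36643 TPM in saline, 8229 and 7063 TPM in AP and 3902 and 3388 TPM in polyI:C+AP, and was the product called lower in polyI:C+AP than in AP. Of the 59 tested genes of the secretory pathway, 9 were called lower and 1 higher in AP than in saline, and 9 lower and 1 higher in polyI:C+AP than in saline, with the largest differences in Tmed11. Limma called 0 of the 59 between polyI:C+AP and AP (12 lower and 2 higher at an unadjusted p under 0.05). Outside the 78, the lists of amino acid transporters (31 tested), lipid synthesis and storage (33), the TCA cycle (33) and the fasting and glucocorticoid response (24) had 4, 2, 2 and 5 genes called lower in AP and 5, 4, 1 and 9 called higher, and none of them had a gene called higher in polyI:C+AP than in AP by limma (2, 9, 9 and 2 at an unadjusted p under 0.05).

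**Figure D5:**
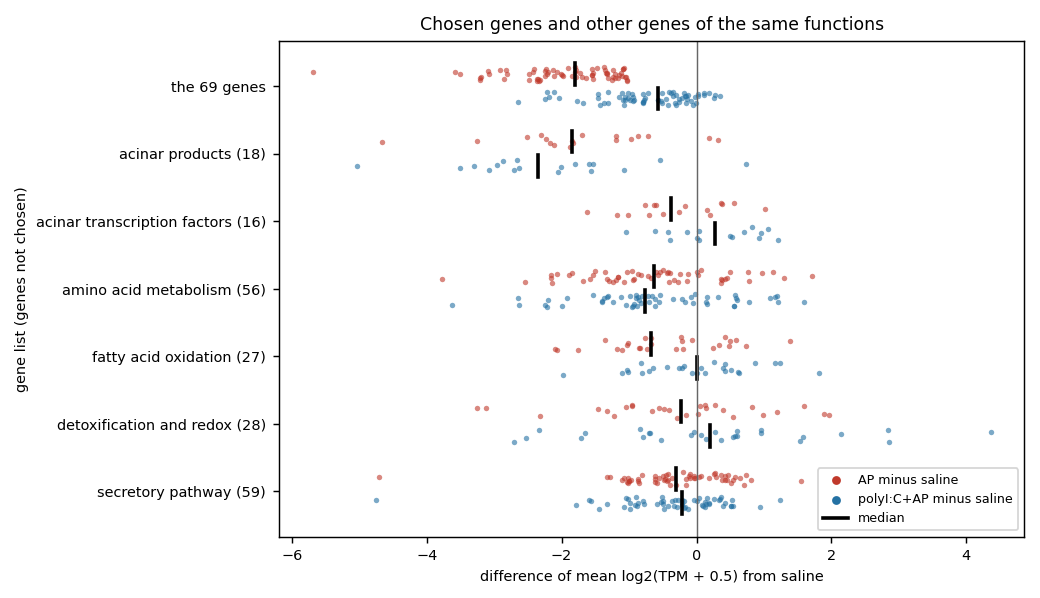
Difference from saline in mean log2(TPM + 0.5) for AP (red) and polyI:C+AP (blue), for 69 of the chosen genes and for the tested genes of 6 lists that were not chosen, with black bars at the medians. The medians of the acinar products are -1.84 in AP and -2.34 in polyI:C+AP, while those of the fatty acid oxidation genes are -0.67 and 0.01. For the 69 genes the pattern is that of the choice itself.

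Markers of some other cell types moved with the groups. Of 14 myeloid markers, 10 were called higher in AP than in saline and 5 lower in polyI:C+AP than in AP, and their sum was 574 and 374 TPM in saline, 2469 and 2707 TPM in AP, and 539 and 426 TPM with polyI:C. Lyz2, a lysozyme of macrophages and neutrophils, was at 444 and 307 TPM in saline, 1891 and 2118 TPM in AP and 203 and 119 TPM in polyI:C+AP. The myeloid sum is thus high where the 78 genes are low, and its part in their values was not tested. Of 14 tested duct-type genes, 9 were called higher in AP and 10 in polyI:C+AP, both against saline, and limma called 0 between polyI:C+AP and AP (1 lower and 1 higher at an unadjusted p under 0.05). Krt19, a duct keratin, was at 51.2 and 62.4 TPM in saline, 1016 and 1041 TPM in AP and 767 and 769 TPM in polyI:C+AP. The duct sum of 34394 and 36776 TPM in AP and 32625 and 25680 TPM in polyI:C+AP, stood against 2618 and 2901 TPM in saline.

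Interferon-stimulated genes marked the polyI:C+AP group. Of 15 tested, 12 were called higher in AP than in saline, 9 higher in polyI:C+AP than in AP, and 15 higher in polyI:C+AP than in saline, with Irf7, a driver of the interferon response, at 0.604 and 0.878 TPM in saline, 3.15 and 6.14 TPM in AP and 79 and 79.2 TPM in polyI:C+AP. Fibroblast markers (12 tested) had 7 called higher in AP and 4 in polyI:C+AP, both against saline, and limma called 0 between polyI:C+AP and AP (4 lower at an unadjusted p under 0.05). Of the 17 islet, 12 endothelial and 15 lymphocyte markers tested, limma called 0 between AP and saline and 0 between polyI:C+AP and AP, while at an unadjusted p under 0.05 there were 2, 1 and 1 in the first comparison and 6, 0 and 3 in the second. Adipocyte markers had 2 lower and 1 higher in AP. Smooth muscle markers had 1 higher and nerve and glia markers 2 higher in AP. Of 5 erythroid markers, 3 were called lower in polyI:C+AP than in saline. Liver genes summed to 474 TPM in polyI:C+AP replicate 2 and to at most 95.0 TPM in the other mice. That library also held 6109 TPM of intestinal genes, and the part of intestinal RNA in the liver sum was not tested. Skeletal muscle genes summed to at most 8.52 TPM in any mouse.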

How the data were processed

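Pancreas RNA-sequencing libraries from 2 saline, 2 AP and 2 polyI:C+AP mice were used, and groups and replicate numbers were taken from the sample labels, which do not say whether mice of 1 group were housed or treated separately. What the authors deposited was TPM for each gene. Upstream of that, Trimmomatic trimming, STAR alignment (mm10) and HTSeq counting were used by the authors. The labels name both a ribosomal depletion kit and a stranded mRNA kit, and the strand setting of the counting is not given in the sources used here. All 6 libraries come from 1 lane per the labels.

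TPM values were used as deposited, and 22490 of 22556 identifiers were matched to GENCODE M21 for symbols and types. The 78 genes and all gene lists were chosen with earlier results of these data known. The list of intestinal genes and the grouping of the 78 genes by function were written after values had been seen. Values in every mouse were given for the 10 genes with the highest mean, the 10 with the largest difference in each comparison of the rule, the 5 at each end of polyI:C+AP minus saline, members of the lists, and further members as examples of their function. Of the 78 genes, 2 are counted but not reported by name here.

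Because the study's count-based test (DESeq2, per the authors) needs read counts, limma 3.58.1 in R 4.3.3 was fitted to log2(TPM + 0.5) of all 6 mice, with 1 coefficient per group, for the 16814 genes averaging 1 TPM or more. The prior variance followed log2(mean TPM × exon length + 1). A call needed an adjusted p (Benjamini-Hochberg, over all tested genes) no higher than 0.05 together with a 2-fold difference. On simulated data for AP against saline (15551 genes), 180 of 200 genes changed 4-fold were recovered with 9 false calls. The simulated libraries had equal depth, the same dispersion for all genes, and as many genes raised as lowered. Estimated depths of the real libraries differed, so these figures do not give the error rate of the real calls. With 2 mice against 2, an exact two-sided permutation test of a single gene cannot go below 0.333, so calls rest on the spread shared across genes, and p-values measure only the spread between these mice.

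Reads per library were estimated from low TPM values, of which 50.7% to 62.2% fell within 0.1 of whole reads, against 19.4% to 20.7% with gene lengths shuffled. Because this share is too low for whole reads to be recovered, no count test was run. Promoter sequences came from RefSeq (GRCm38.p6), and motifs were matched exactly on both strands. Shared sequence was counted as stretches of 100 bases found in GENCODE transcripts of another gene. Alternatives were other pseudocounts, scaling, filters, prior and thresholds, a replicate block, and each mouse left out.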

Additional observations from a re-analysis of the deposited data

How the results depend on the processing

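The number of genes that met the rule was 78, and 189 with a mean of at least 1 TPM, 27 with at least 50 TPM, 91 with a pseudocount of 0.1, 71 with a pseudocount of 1, 100 after median-of-ratios scaling (73 of them shared with the 78), and 74 to 95 with 1 mouse left out. With the 0.8 threshold set on 1 polyI:C+AP mouse at a time, an alternative chosen after seeing the data, 61 and 67 of the 78 met it in replicates 1 and 2. After median-of-ratios scaling the median of the 78 genes moved to -2.22 for AP minus saline and to -0.96 for polyI:C+AP minus saline, and 32 in place of 20 were called lower in polyI:C+AP than in saline. With 1 mouse left out, where limma takes the spread of the lone mouse from the other groups, these medians ran from -1.87 to -1.71 and from -0.70 to -0.46, and that of polyI:C+AP minus AP from 1.09 to 1.26.

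Calls between polyI:C+AP and AP were the least stable. The 17 of the 78 genes called higher became 11 with a pseudocount of 0.1, 5 with no filter on low values, 3 with a prior following the mean log2 value, and 0 to 8 with 1 mouse left out. Over all tested genes the 142 calls in this comparison became 90 with no filter, 28 with the other prior, and 0 to 141 with 1 mouse left out. Left-out ranges were 50 to 71 of the 78 genes lower in AP, 16 to 20 lower in polyI:C+AP than in saline, 0 to 8 higher there, and 2458 to 3757 calls over all genes in AP and 2588 to 3441 in polyI:C+AP, both against saline. Of 2958 values for 76 single genes under alternatives, 2692 kept their side of the threshold for a call, 205 dropped below it and 60 passed it. Sign changes of values with no call in either fit are counted among the 2692. An example is Hnf4g in polyI:C+AP minus AP (2.30 with all mice, -0.63 without polyI:C+AP replicate 2). Where a fit had a call, 1 value changed sign, that of Cdhr2 in polyI:C+AP against saline (4.30 without polyI:C+AP replicate 1 and -1.88 without replicate 2). The cause was not tested.

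Replicate numbers do not mark shared litters or days in the labels, and deviations of same-numbered mice correlated at 0.0075, 0.0351 and -0.00385, so the numbers were not taken to pair mice. With the replicate number as a block, 67 of the 78 genes were called lower in AP, 12 higher in polyI:C+AP than in AP, and 20 lower and 0 higher in polyI:C+AP than in saline. Over all genes the block gave 3646, 124 and 3287 calls in AP against saline, polyI:C+AP against AP and polyI:C+AP against saline.

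Saline libraries had the fewest estimated reads, counted over genes with values, so genes near 1 estimated read are coarser there. In addition, 2 mice per group limit all statements above.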

Other observations

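Some genes outside the 78 are given for comparison, and of these Nr0b2 was not lower in AP than in saline. Ppargc1a, a coactivator of mitochondrial and oxidative genes, was at 9.41 and 5.74 TPM in saline, 1.76 and 2.33 TPM in AP and 5.43 and 5.52 TPM in polyI:C+AP, and was called lower in AP than in saline by limma without a call in the other comparisons. Gata4, a pancreatic GATA factor, was at 63.5 and 47 TPM in saline, 34.3 and 30.2 TPM in AP and 54.4 and 58.4 TPM in polyI:C+AP, and Onecut1, a factor of pancreatic development, at 6.49 and 3.26 TPM in saline, 3.08 and 1.29 TPM in AP and 6.35 and 7.39 TPM in polyI:C+AP, and neither was called in any comparison. Nr0b2, a receptor that represses bile acid synthesis and is a known target of Nr1h4, was at 31.5 and 35.7 TPM in saline, 53.3 and 46.4 TPM in AP and 82.2 and 60.0 TPM in polyI:C+AP, higher in polyI:C+AP than in saline by limma. Of the other vomeronasal receptor genes of that locus, Vmn2r10 was at 1.28 and 1.83 TPM in saline, 0.145 and 0.0575 TPM in AP and 4.15 and 2.4 TPM in polyI:C+AP and was called lower in AP and higher in polyI:C+AP than in AP. Vmn2r11 was at 2.65 and 4.56 TPM in saline, 0 and 0.143 TPM in AP and 1.18 and 1.52 TPM in polyI:C+AP and was called lower in AP.

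For the ligands of receptors among the 78 genes, values were as follows. Grp, which codes for the bombesin-type peptide, was at most 0.313 TPM in any mouse. Vip was at 0.506 and 1.04 TPM in saline, 8.18 and 5.19 TPM in AP and 3.1 and 2.99 TPM in polyI:C+AP, and was called higher in AP than in saline and in polyI:C+AP than in saline. Agt, the angiotensin precursor, was at 23.5 and 7.57 TPM in saline, 7.42 and 5.28 TPM in AP and 6.25 and 2.25 TPM in polyI:C+AP, with no call. The receptor Agtr1a was at 1.94 and 5.8 TPM in saline, 4.17 and 1.95 TPM in AP and 2.63 and 3.93 TPM in polyI:C+AP, also with no call.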
